A study of Mus musculus with 8 samples.

Results

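The 31 genes described here carry the pathway of N-linked glycosylation, and were taken by symbol as 31 of the 49315 gene identifiers in the expression table. They fall into 4 stages fixed by enzyme function: 12 genes of lipid-linked assembly, 6 subunits of oligosaccharyltransferase, 7 trimming enzymes and 6 branching enzymes. Their RNA was measured by bulk sequencing of polyadenylated transcripts in 4 mouse pancreatic ductal adenocarcinoma lines, named 6694c2, 2838c3, 6499c4 and 6419c5. Each line gave 1 library with a knockout (KO) of C1galt1c1 and 1 wild-type (WT) library of the same line, so there were 8 libraries, 4 per genotype. All were grown in high-glucose DMEM with serum and antibiotics. C1galt1c1, also called Cosmc, encodes the chaperone that folds the core 1 O-glycan synthase, and cells that lack it carry the truncated O-glycan called Tn antigen. The labels do not say whether a KO culture was a clone or a pool. Within a line nothing was repeated, so every test over genotypes measures the spread between the 4 lines.

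N-glycans start in the endoplasmic reticulum (ER), where a sugar chain is built on the lipid dolichol, first on the cytosolic and then on the lumenal face. Oligosaccharyltransferase moves the finished chain to asparagines of new proteins, glucosidases and mannosidases trim it, and Golgi GlcNAc transferases open antennae that galactose, sialic acid and fucose then cap. The pathway does not use C1galt1c1, which serves the separate O-GalNAc chains, and no glycan was measured in these data.

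The genotype label was first checked at the targeted gene. C1galt1c1 stood at 10.9, 15.3, 19.0 and 16.1 TPM in the KO libraries, with the lines in the order 6694c2, 2838c3, 6499c4, 6419c5 used throughout, against 37.0, 40.4, 54.2 and 37.9 TPM in the WT libraries. TPM is a length-scaled share of transcripts that sums to 1000000 in each library. All 4 KO values lay below all WT values, and the sources used here do not give the position of the edit within the gene. Epithelial markers summed to between 13353 and 24164 TPM in KO and between 13776 and 20017 TPM in WT libraries, led by Krt8. Fibroblast markers summed to at most 5.44 TPM in KO and 7.29 TPM in WT libraries, and acinar and islet markers to at most 1.74 and 2.65 TPM, while each immune and endothelial marker stayed below 1 TPM in all 8 libraries. Identifiers without a gene name took 12.5%, 1.21%, 1.332% and 9.69% of all TPM in the KO libraries, against 1.22%, 0.713%, 1.11% and 1.05% in the WT libraries. Without a correction the median gene stood 0.15 log2 units lower in KO libraries, as the mean of the 4 lines, and all differences below were taken after scaling each library to its median ratio.

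Promoter letters are shown for Alg12, Alg3 and Rpn1, 3 of the 4 members at least 1.5-fold higher in KO cells of 6694c2. In that line the ER chaperone genes stood highest over WT. Stt3a, the other of the 4, met the same rule and is not shown. The letters come from the RefSeq promoter table on GRCm38.p6, which held 24 of the 31 members. Each run gives the 250 bases before the start, 5′ to 3′ on the gene's strand, with CCAAT and CCACG in capitals.

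Alg12, chr15:88819319-88819568, - strand: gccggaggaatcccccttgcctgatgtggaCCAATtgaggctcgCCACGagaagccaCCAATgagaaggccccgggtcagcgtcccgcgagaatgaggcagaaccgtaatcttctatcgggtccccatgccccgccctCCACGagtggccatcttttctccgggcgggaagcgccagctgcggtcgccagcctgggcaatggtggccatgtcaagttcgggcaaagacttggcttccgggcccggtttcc
Alg3, chr16:20610762-20611011, - strand: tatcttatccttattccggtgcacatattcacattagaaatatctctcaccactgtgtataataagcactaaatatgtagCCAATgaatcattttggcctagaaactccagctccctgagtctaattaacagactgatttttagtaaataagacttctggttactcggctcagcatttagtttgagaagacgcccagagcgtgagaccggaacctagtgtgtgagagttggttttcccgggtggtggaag
Rpn1, chr6:88084223-88084472, + strand: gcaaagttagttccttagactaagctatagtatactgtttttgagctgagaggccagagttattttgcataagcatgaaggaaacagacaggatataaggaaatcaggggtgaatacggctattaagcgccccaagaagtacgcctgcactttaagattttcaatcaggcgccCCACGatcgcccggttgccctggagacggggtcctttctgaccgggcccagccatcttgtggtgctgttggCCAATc

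The ER stress response element ERSE, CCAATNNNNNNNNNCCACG, joins both words at a fixed distance. A search of both strands of the window from 250 bases before to 50 bases after each start found it in 1 of the 24 members, Alg12, and in 37 of 27025 genes, 0.137%. It stood in 5 of 10 ER chaperone windows, among them those of Hspa5 and Creld2. Creld2 lies head to head with Alg12 on chromosome 15. On GRCm39 it starts at 88703795 on the plus strand, and Alg12 starts at 88703684 on the minus strand. Whether the matches of Alg12 and Creld2 are the same element was not tested. The related element ERSE-II, ATTGGNCCACG, was in no member window and in 0.0444% of all windows. CCAAT alone was in 17 of 24 member windows and in all 6 of oligosaccharyltransferase, against 41.1% of all genes, and CCACG alone in 14 of 24 against 35.5%. Matches to CCAAT and CCACG include those inside the longer elements, and a match is a description of letters, not a bound site.

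Expression of the members spanned a wide range between genes, on the length-scaled TPM. The oligosaccharyltransferase subunits were the most abundant stage, with gene medians over the 8 libraries from 67.8 TPM for Dad1 to 303 TPM for Ddost. Assembly genes ran from 2.25 TPM for Alg13 to 45.9 TPM for Alg2, trimming genes from 0.793 TPM for Man1c1 to 276 TPM for Ganab, and branching genes from 3.28 TPM for Mgat4a to 212 TPM for Mgat3. Ratios of the highest to the lowest library were taken on deposited TPM, before scaling. The steadiest member on that measure was Alg2, whose highest library was 1.22 times its lowest, followed by Ganab at 1.32 times. This order depends on scaling, since scaled Alg2 in KO cells of 6694c2 and 6419c5 stood at 127% and 118% of WT. Mgat4a varied most, 5.36 times, followed by Alg13 at 4.01 times and Mgat5 at 3.53 times, while the median gene tested and above 0 in all libraries varied 2.44 times. In bulk RNA of a culture, fewer cells with a transcript and less of it per cell cannot be told apart.

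No member passed the threshold for a difference between KO and WT cells across the 4 lines. The test was limma with the line as a block, on log2(scaled TPM + 1), over the 12900 genes with at least 1 TPM in at least 4 libraries. Of the 31 members 30 were tested, and Man1c1 was too low. None of the 30 had a Benjamini-Hochberg adjusted p under 0.05, and the smallest was 0.935. The same held for all 12900 genes, 0.0% called, with C1galt1c1 itself at a log2 difference of -1.27 ± 0.142 (SE), an unadjusted p of 5.48e-05 and an adjusted p of 0.402. At an unadjusted p under 0.05 again none of the 30 members was called, whereas 2.3% of all genes were called higher in KO cells and 2.71% lower. On simulated data of this design the fit recovered 32% of genes changed by 1 log2 unit and 91% of those changed by 2. So most differences of that smaller size or less were not detectable here. The simulation changed 100 genes by each amount, equally in all 4 lines. In the real data no gene passed, so the shares detectable here may be lower than in the simulation. Leaving out line 2838c3 gave 7 members at an unadjusted p under 0.05, namely Alg5, Alg12, Rpn1, Man1a2, Man2a1, Mgat4a and Mgat4b, none of them past the adjusted threshold, and in that setting 987 of 12986 genes (7.6%) were called at the same level.

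After scaling, Man1a2 alone was lower and Alg9 alone was higher in the KO library of every line, 1 of 30 each, against 6.88% and 6.39% of all genes. Man1a2, a Golgi mannosidase that removes outer mannoses, lies on chromosome 3 (GRCm39, 100449283 to 100593317, minus strand). It stood at 24.4, 44.9, 38.2 and 48.0 TPM in KO cells, against 32.7, 51.2, 56.8 and 81.5 TPM in WT cells. Each KO value was below its own parent, but the KO and WT ranges overlapped because WT 6694c2 lay below 3 of the KO libraries. The fitted log2 difference was -0.32 ± 0.145 (SE), with an unadjusted limma p of 0.063 and an adjusted p of 0.935. Alg9, a lumenal mannosyltransferase, stood at 36.1, 32.2, 28.2 and 16.6 TPM in KO cells, against 40.9, 29.4, 27.3 and 15.5 TPM in WT cells. Its fitted log2 difference was 0.18 ± 0.131 (SE), unadjusted limma p 0.22. After scaling Alg9 was higher by 0.06 log2 units in 6694c2, a sign that turned to -0.17 without scaling, as the TPM show, whereas Man1a2 stayed lower in all 4 lines under every scaling tried. Without scaling 5 members were lower in all 4 lines (Alg14, Stt3b, Rpn2, Ganab and Man1a2) and 0 higher, with structural RNA left out in place of scaling 3 were lower (Stt3b, Ganab and Man1a2), and under quantile normalization Mgat4b joined Alg9.

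**Figure D1:**
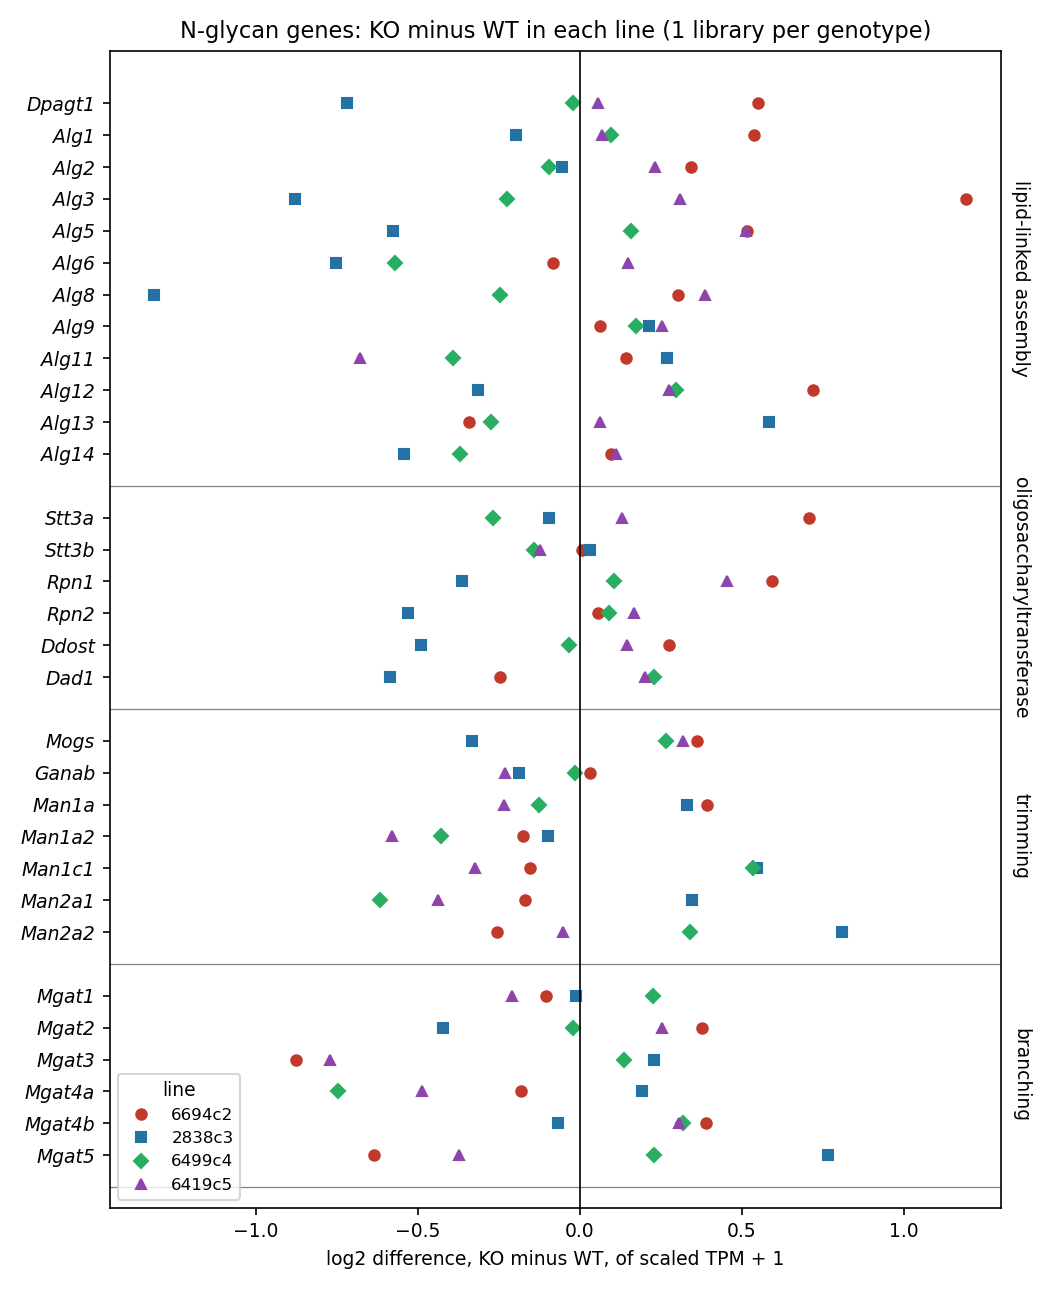
Differences of log2(scaled TPM + 1), KO minus WT, on the x axis for the 31 genes in rows by stage, with 1 point per line and no error since each line has 1 library per genotype. Alg3 in 6694c2 (1.19) and Alg8 in 2838c3 (-1.31) are the extremes, and in most rows the 4 lines stand on both sides of 0.

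Within each line KO minus WT is a difference of 2 libraries and was not tested. Folds were taken on the scaled TPM + 1, which brings low genes closer together, over the 30 members and all genes tested. In 6694c2, 4 members were at least 1.5-fold higher in KO cells, Alg3, Alg12, Stt3a and Rpn1, and 2 were at least 1.5-fold lower, Mgat3 and Mgat5. All genes tested gave 8.72% higher and 11.5% lower there. In 2838c3, Man2a2 and Mgat5 were higher past the same fold, against 14.9% of all genes, and Dpagt1, Alg3, Alg6, Alg8 and Dad1 were lower, against 16.0%. In 6499c4 no member was higher and Man2a1 and Mgat4a were lower, against 4.57% and 4.95% of all genes. In 6419c5 no member was higher and Alg11 and Mgat3 were lower, against 6.07% and 6.58%. Of 30 members tested, the largest of these counts are 13.3% higher, in 6694c2, and 16.7% lower, in 2838c3, where the shares of all genes were 8.72% and 16.0%. On scaled TPM with nothing added, Alg13 (166% of WT) and Alg5 (66.2%) in 2838c3, Alg6 in 6499c4 (55.8%), and Man1a2 (66.4%) and Mgat4a (65.1%) in 6419c5 would pass as well. Whether these pass thus depends on the 1 added.

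The 12 genes of lipid-linked assembly leaned different ways in different lines. They had a median log2 difference of 0.32 in 6694c2, -0.43 in 2838c3, -0.16 in 6499c4 and 0.19 in 6419c5, with 10, 3, 4 and 11 genes higher in KO cells. All genes tested had medians between -0.02 and 0.01 in the 4 lines. These 4 signs were kept under each scaling tried, though without scaling the medians of 6694c2 and 6419c5 came to 0.09 and 0.05. Whether a KO difference differs between lines could not be tested with 1 library per genotype in each.

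Alg3, which adds the first mannose on the lumenal face, had the widest gap between lines in KO minus WT of any member (chromosome 16, 20424124 to 20430485, GRCm39, minus strand). It stood at 43.9, 25.6, 18.1 and 44.2 TPM in KO cells, against 22.2, 51.0, 23.4 and 39.9 TPM in WT cells. The KO library was the high one in 6694c2 and the low one in 2838c3, at 234% and 53.5% of WT after scaling, and the KO and WT ranges overlapped. Alg8, which adds the second glucose, stood at 24.7, 10.1, 12.3 and 18.7 TPM in KO cells, against 23.5, 28.2, 16.2 and 15.9 TPM in WT cells. Only KO 2838c3 stood far from its parent, at 38.0% of WT after scaling. Dpagt1, which starts the chain by placing GlcNAc phosphate on dolichol, stood at 54.2, 20.0, 27.6 and 19.5 TPM in KO cells, against 43.5, 35.6, 30.8 and 21.1 TPM in WT cells. Here too KO was high in 6694c2 and low in 2838c3, with the other lines close to their parents.

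Alg12, the lumenal mannosyltransferase that acts between the steps of Alg9, stood at 22.8, 13.1, 11.2 and 15.3 TPM in KO cells, against 16.0, 17.6, 9.78 and 14.1 TPM in WT cells. KO was higher in 3 lines and lower in 2838c3, with a fitted log2 difference of 0.24 ± 0.195 (SE) and an unadjusted limma p of 0.254. The difference came to 0.43 without 2838c3, 0.09 without 6694c2 and -0.0081 without both 6694c2 and 6419c5. Alg6, which adds the first glucose, was rare, at 2.51, 1.98, 1.5 and 2.48 TPM in KO cells, against 3.2, 4.27, 2.95 and 2.41 TPM in WT cells. It was lower in KO cells of 3 lines, with a fitted log2 difference of -0.31 ± 0.214 (SE) and an unadjusted limma p of 0.188, which came to -0.17 without 2838c3 and -0.66 without both 6694c2 and 6419c5. Of its exon bases 12.2% overlap Itgb3bp on the opposite strand, and reads of the pair may not have been told apart.

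Alg5, which makes the glucose donor dolichol phosphate glucose, stood at 44.7, 26.9, 43.3 and 57.0 TPM in KO cells, against 36.7, 43.2, 42.5 and 44.7 TPM in WT cells. It was high in KO cells of 6694c2 and 6419c5 and low in 2838c3. Alg1, which adds the first mannose of the chain, stayed between 22.9 and 39.2 TPM in KO and between 23.4 and 42.0 TPM in WT cells, with 59.9% of its exon bases overlapping Eef2kmt on the other strand. Alg2, which adds the mannoses that follow, kept to between 41.1 and 50.1 TPM in KO and between 42.7 and 50.05 TPM in WT cells. On deposited TPM, before scaling, this was the lowest ratio of highest to lowest library of any member.

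Alg11, which completes the cytosolic mannose chain, was the only gene of the stage lower in KO cells of 6419c5 after scaling. It had 23.5, 35.6, 20.9 and 29.8 TPM in KO cells, against 25.1, 31.2, 30.4 and 54.4 TPM in WT cells. The high library was WT 6419c5, of which KO 6419c5 held 61.7% after scaling. Alg13 and Alg14 together form the transferase of the second GlcNAc, Alg13 as the catalytic and Alg14 as the membrane subunit. Alg13 lay between 1.24 and 4.98 TPM in KO and between 1.29 and 3.18 TPM in WT cells, and Alg14 between 8.3 and 14.2 TPM in KO and between 12.1 and 19.2 TPM in WT cells. The partners stood apart in KO 2838c3, where Alg13 was at 166% and Alg14 at 66.9% of WT after scaling.

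The oligosaccharyltransferase subunits had median log2 differences of 0.17, -0.43, 0.03 and 0.16 over the lines in order, which came to -0.08, -0.51, -0.11 and -0.01 without scaling. So only the lower level in 2838c3, seen in 5 of 6 subunits, kept its sign there, and quantile normalization turned 6499c4 to -0.08. Rpn1, a ribophorin subunit that binds near the ribosome, stood at 382, 191, 182 and 234 TPM in KO cells, against 299, 262, 186 and 192 TPM in WT cells. KO was high in 6694c2 and 6419c5, low in 2838c3 and level with WT in 6499c4. Its partner Rpn2 stood at 178, 154, 144 and 159 TPM in KO cells, against 203, 237, 148 and 159 TPM in WT cells, so only KO 2838c3 was well apart from its parent.

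Stt3a and Stt3b are the alternative catalytic subunits, Stt3a acting during and Stt3b mainly after protein translocation. Stt3a stood at 145, 91.4, 77.3 and 132 TPM in KO cells, against 105, 104, 102 and 136 TPM in WT cells. It was high in KO 6694c2 and low in KO 6499c4. Stt3b stood at 172, 159, 126 and 107 TPM in KO cells, against 202, 166, 153 and 132 TPM in WT cells. After scaling no KO library differed from WT by more than 0.14 log2 units for Stt3b, the closest agreement in the stage.

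Dad1, a small subunit without which the complex falls apart, stood at 69.9, 67.8, 67.9 and 63.7 TPM in KO cells, against 98.3, 109, 63.4 and 62.3 TPM in WT cells. On these deposited TPM the KO libraries were nearly equal, and the spread lay in the WT libraries, high in 6694c2 and 2838c3. Scaling, by a factor of 0.855 for KO 6694c2, puts that library above the other KO libraries. Ddost, a subunit of the catalytic core, lay between 209 and 417 TPM in KO and between 233 and 425 TPM in WT cells, with 45.8% of its exon bases overlapping Pink1 on the other strand.

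Trimming enzymes had median log2 differences of -0.15, 0.33, -0.02 and -0.23 over the lines in order, and quantile normalization brought the first to 0.0043. These medians count Man1c1, which was too low to be tested. Its own value is the median in 6694c2, and its 0.55 in 2838c3 lifts the median there. Mogs, the glucosidase that removes the outermost glucose, stood at 67.9, 40.3, 56.6 and 51.1 TPM in KO cells, against 62.4, 54.3, 51.5 and 46.0 TPM in WT cells. It was low in KO 2838c3 only. Ganab, the catalytic subunit of the next glucosidase, stood at 244, 242, 269 and 241 TPM in KO cells, against 282, 293, 299 and 319 TPM in WT cells. All 4 KO TPM lay below all WT TPM, yet after scaling its log2 differences were 0.03, -0.19, -0.02 and -0.23, so most of the gap in 6694c2 and 6499c4 went with the library-wide shift.

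Man1a, the other main Golgi mannosidase of this class, lay between 18.6 and 27.4 TPM in KO and between 16.9 and 30.8 TPM in WT cells. It was higher in KO cells of 6694c2 and 2838c3 and lower in the other lines. Man1c1, another relative, was listed between 0.4175 and 1.41 TPM in KO and between 0.65 and 1.46 TPM in WT cells. Man2a1 and Man2a2 remove the last mannoses before complex chains form. Man2a1 stood at 22.3, 22.8, 29.3 and 38.2 TPM in KO cells, against 29.7, 18.9, 49.96 and 58.6 TPM in WT cells, with a fitted log2 difference of -0.22 ± 0.188 (SE) and an unadjusted limma p of 0.284. It was lower in KO cells of 3 lines and higher in 2838c3, and the difference came to -0.41 without 2838c3 and -0.09 without 6499c4. Man2a2 stood at 12.1, 20.3, 25.8 and 20.0 TPM in KO cells, against 17.3, 11.9, 22.2 and 23.4 TPM in WT cells. Its high ratio was again in 2838c3, at 182% of WT after scaling.

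Branching enzymes had median log2 differences of -0.14, 0.09, 0.18 and -0.29, and these kept their signs under each scaling tried. Mgat1 and Mgat2 open the first antennae. Mgat1 lay between 45.6 and 74.9 TPM in KO and between 58.1 and 96.0 TPM in WT cells, and Mgat2 between 61.6 and 162 TPM in KO and between 69.3 and 147 TPM in WT cells. Each was within 1.5-fold of its parent in all 4 lines.

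Mgat3 adds the bisecting GlcNAc, which blocks further branching, and Mgat5 opens the branch bound by the lectin L-PHA. Mgat3 (chromosome 15, 80049871 to 80099720, GRCm39, plus strand) stood at 86.3, 222, 238 and 147 TPM in KO cells, against 188, 202, 238 and 284 TPM in WT cells. KO cells of 6694c2 and 6419c5 held 54.2% and 58.4% of WT after scaling, while the other pairs were close. Its fitted log2 difference was -0.32 ± 0.229 (SE), unadjusted limma p 0.206, and it came to 0.18 with 6694c2 and 6419c5 left out. Mgat5 stood at 7.51, 19.3, 26.5 and 17.5 TPM in KO cells, against 14.4, 11.7, 24.7 and 25.9 TPM in WT cells. It too was low in KO cells of 6694c2 and 6419c5, and it was high in KO 2838c3, at 176% of WT after scaling. Of its exon bases 11.7% overlap Tmem163 on the other strand.

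Mgat4a and Mgat4b open the same antenna, and Mgat4b was the abundant enzyme in every library. Mgat4b stood at 183, 104, 122 and 79.3 TPM in KO cells, against 165, 116, 107 and 72.0 TPM in WT cells. After scaling it was higher in KO cells of 3 lines, all but 2838c3, with a fitted log2 difference of 0.24 ± 0.139 (SE) and an unadjusted limma p of 0.134. The difference came to 0.08 without scaling and 0.13 without both 6694c2 and 6419c5. Of its exon bases 4.36% overlap Sqstm1, which lay on the opposite strand at 1763, 303, 486 and 775 TPM in KO cells, against 402, 292, 439 and 607 TPM in WT cells, and its part in the Mgat4b values was not tested. Mgat4a stood at 2.56, 2.33, 5.56 and 2.98 TPM in KO cells, against 3.57, 2.04, 10.9 and 5.16 TPM in WT cells. It was low in KO cells of 3 lines and high in WT 6499c4, with a fitted log2 difference of -0.31 ± 0.206 (SE), unadjusted limma p 0.183, which came to -0.16 without 6499c4.

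**Figure D2:**
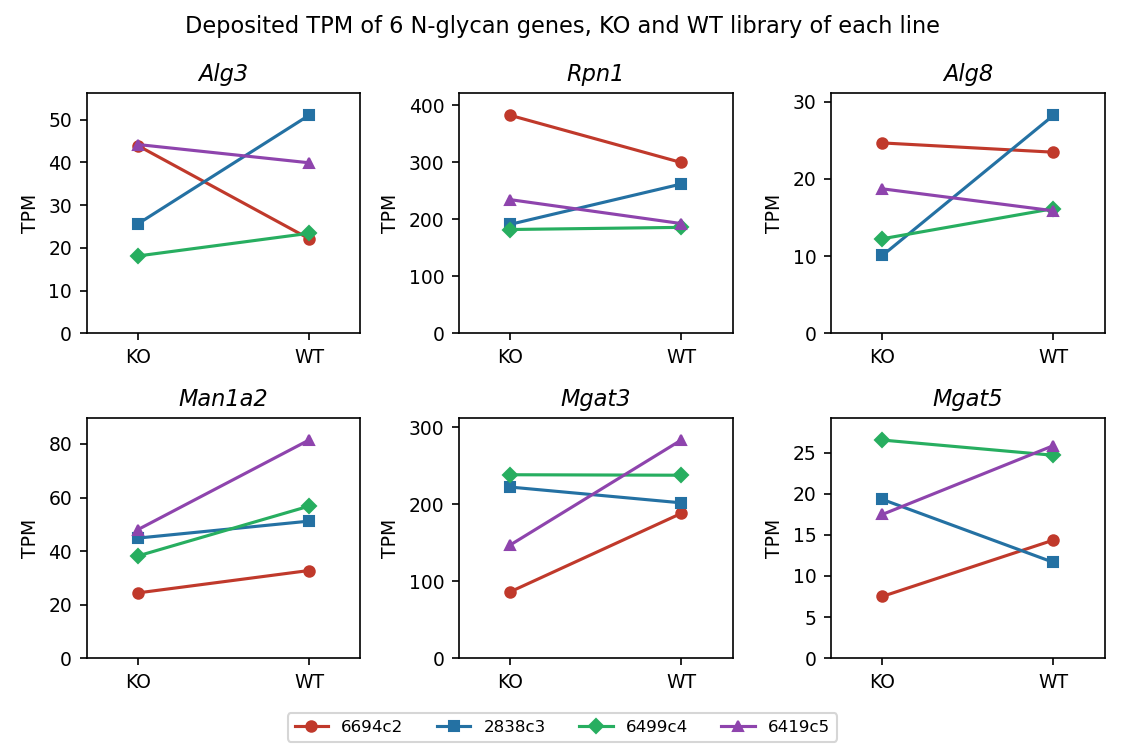
Deposited TPM (y axes, from 0) of 6 members in the KO and WT library of each line, joined by line, with 1 library per point. Alg3 and Rpn1 are higher in KO than WT in 6694c2 and lower in 2838c3, Man1a2 is lower in KO in all 4 lines, and Mgat3 is lower in KO in 6694c2 (86.3 against 188 TPM) and 6419c5 (147 against 284 TPM).

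Grouped by compartment, a split chosen after the values were seen, the 20 ER members and the 11 Golgi members had medians of opposite sign in each line. Of the 20 ER members 17, 4, 8 and 17 were higher in KO cells of the 4 lines in order, with median log2 differences of 0.29, -0.35, -0.03 and 0.16. Of the 11 Golgi members 3, 7, 6 and 2 were higher, with medians of -0.17, 0.23, 0.14 and -0.32. The last of these medians is the value of Man1c1, which was too low to be tested. Among all 12900 genes tested 6208, 6426, 6663 and 6437 were higher in KO cells. Without scaling the ER counts became 11, 3, 5 and 10 and the Golgi counts 3, 7, 6 and 2, with ER medians of 0.05 in 6694c2 and 0.01 in 6419c5.

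The ER chaperone genes, 12 genes outside the pathway, were read beside them. Their median log2 differences were 1.04, -0.49, -0.02 and 0.42 over the lines in order, with 12, 2, 5 and 12 genes higher in KO cells. Hspa5, the main ER chaperone, stood at 2436, 493, 326 and 712 TPM in KO cells, against 745, 847, 366 and 396 TPM in WT cells. The order of the lines, 6694c2 then 6419c5, 6499c4 and 2838c3, was also the order of the ER members' medians, over 4 lines only. The 2 KO libraries with a high share of unnamed identifiers were those of 6694c2 and 6419c5. With unnamed identifiers and small structural RNA left out in place of scaling, 15 and 17 of the 20 ER members were higher in these lines, with medians of 0.24 and 0.14. The part of the chaperone genes in the members' values was not tested.

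**Figure D3:**
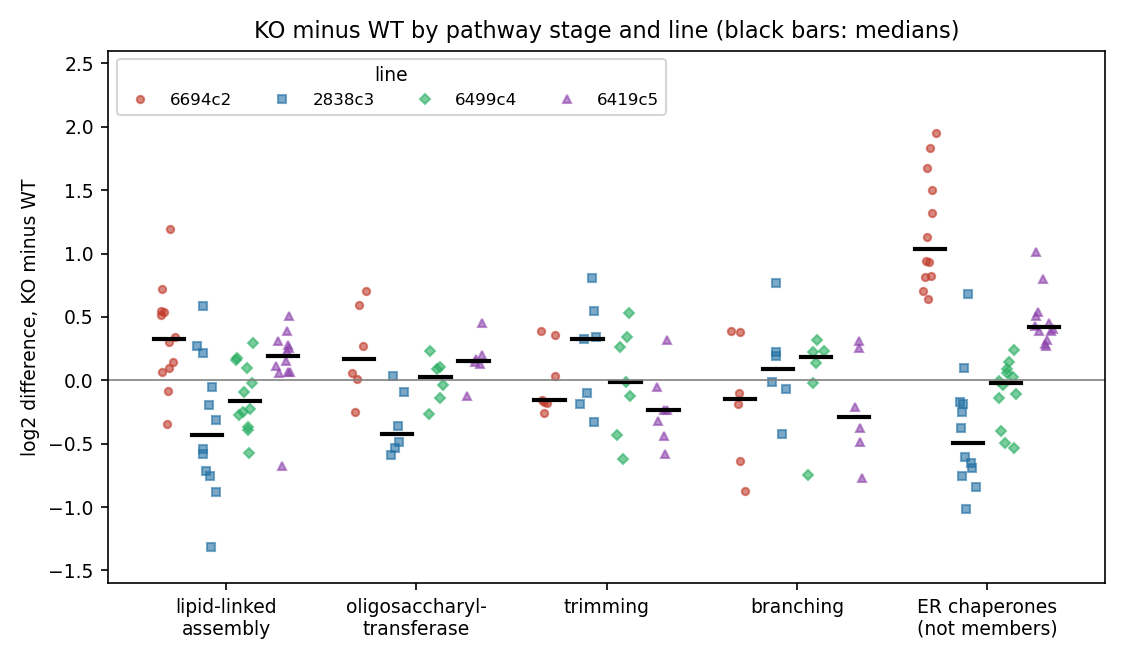
Differences of log2(scaled TPM + 1), KO minus WT (y axis), for each gene of the 4 stages and of the ER chaperones, by line, with black bars at the medians. Assembly medians (0.32, -0.43, -0.16 and 0.19) have the signs of the chaperone medians (1.04, -0.49, -0.02 and 0.42) in the 4 lines. Trimming medians, with the untested Man1c1 counted, stand opposite in 6694c2, 2838c3 and 6419c5.

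Plain TPM ratios between enzymes within a library do not depend on scaling. The log2 differences of ratios below were taken on deposited TPM + 1, so they depend in part on scale and on the 1 added. For Mgat4a to Mgat4b the mean of -0.51 came to -0.58 with 0.1 added. The Man1a to Man1a2 ratio was 0.78, 0.61, 0.486 and 0.48 in KO cells, against 0.517, 0.449, 0.393 and 0.378 in WT cells. It was higher in the KO library of all 4 lines, by a mean of 0.42 log2 units (SD 0.116, n = 4 lines; exact two-sided sign-flip test, p = 0.125, adjusted over 5 ratios 0.3125). The Mgat3 to Mgat5 ratio was 11.5, 11.5, 8.99 and 8.41 in KO cells, against 13.1, 17.3, 9.64 and 10.97 in WT cells. It was lower in all 4 KO libraries, by a mean log2 difference of -0.33 (SD 0.191, n = 4 lines; exact two-sided sign-flip test, p = 0.125, adjusted 0.3125), and Mgat3 exceeded Mgat5 in every library. With 4 lines, 0.125 is the smallest p this test can give, so no ratio could pass 0.05.

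The other ratios did not hold one direction over the lines. The Stt3a to Stt3b ratio was 0.847, 0.573, 0.613 and 1.24 in KO cells, against 0.519, 0.626, 0.67 and 1.04 in WT cells, a mean log2 difference of 0.18 (SD 0.393, n = 4 lines; exact p = 0.5). It was higher in KO cells of 6694c2 and 6419c5, and it passed 1 only in 6419c5, in both genotypes. The Man2a1 to Man2a2 ratio had a mean log2 difference of -0.43 (SD 0.425, n = 4 lines; exact p = 0.25) and the Mgat4a to Mgat4b ratio one of -0.51 (SD 0.575, n = 4 lines; exact p = 0.25). Each was lower in KO cells of 3 lines, all but 6694c2 for the mannosidases and all but 2838c3 for the Mgat4 pair.

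**Figure D4:**
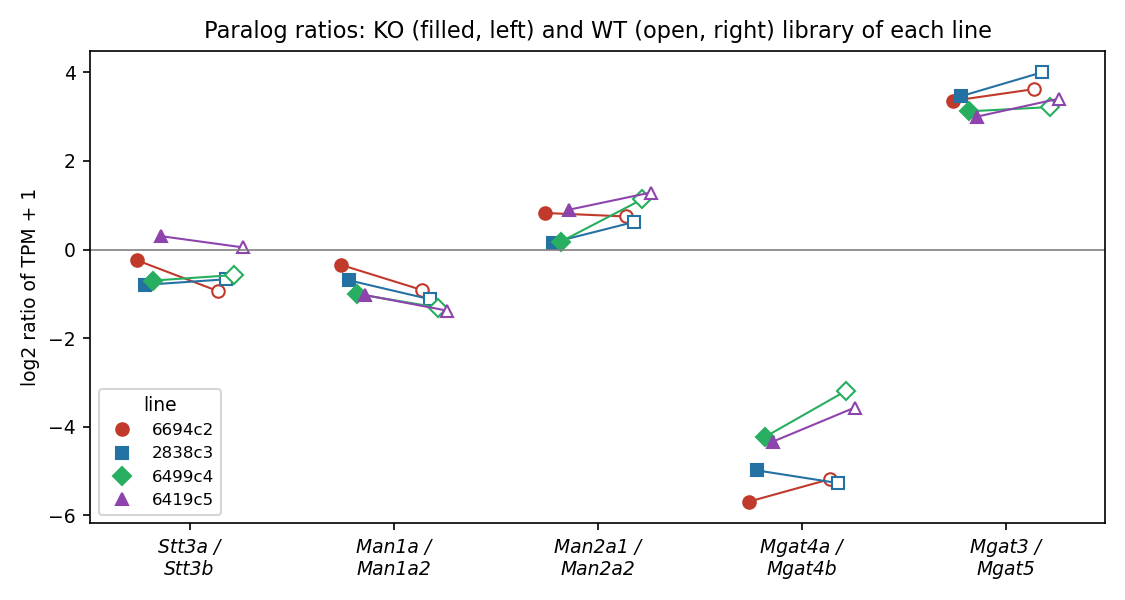
Log2 ratio of TPM + 1 (y axis) for 5 pairs of enzymes in the KO (filled, left) and WT (open, right) library of each line, joined by line. The Man1a to Man1a2 lines all step down towards WT and the Mgat3 to Mgat5 lines all step up, while the other pairs hold lines of both directions.

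Some members differed between lines whatever the genotype, at a share near that of all genes. In the F-test of the same limma fit, with the KO and WT library of a line as its samples, 4 of 30 members (13.3%) had an adjusted p under 0.05, against 17.0% of the 12900 genes. Alg9 averaged 38.5, 30.8, 27.8 and 16.1 TPM over both libraries of each line (adjusted p = 0.014), highest in 6694c2 and lowest in 6419c5. Mgat4b averaged 174, 110, 115 and 75.7 TPM (adjusted p = 0.019), with the same lines at the ends. Mgat2 averaged 154, 74.9, 97.6 and 71.4 TPM (adjusted p = 0.033), high in 6694c2 alone. Of its exon bases 11.6% overlap Rpl36al, which stood on the other strand at 854, 456, 558 and 382 TPM in KO cells, against 747, 378, 483 and 352 TPM in WT cells, with an adjusted p of 0.0136 in the same test. Mgat4a averaged 3.06, 2.19, 8.25 and 4.07 TPM (adjusted p = 0.047), high in 6499c4 alone. Neighbours in each order were not tested pair by pair. The 4 calls came to 0 without 6694c2 or without 6419c5, where 11.2% and 5.69% of all genes were called, and to 1 (Alg9) without 6499c4, where 6.22% were. Without 2838c3 they came to 10, and 29.3% of all genes were called.

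Other genes of the pathway were read from 4 lists beside the members, with the ER chaperones as the last of 5 lists, and none of their genes passed the adjusted threshold. The fitted values of the 2 genes of smallest p in each list follow, all with an adjusted p of at least 0.935. Of the 15 dolichol and mannose donor genes the phosphomannomutase Pmm1 had a log2 difference of 0.49 and an unadjusted limma p of 0.048, and its relative Pmm2 had -0.33 with 0.108. Of the 16 genes of the lectin and chaperone cycle Edem1, which takes misfolded glycoproteins to degradation, had 0.38 with an unadjusted limma p of 0.031, and the glucosidase subunit Prkcsh had 0.26 with 0.096. Of the 10 capping and core fucose genes tested the core fucosyltransferase Fut8 had 0.45 with an unadjusted limma p of 0.045, and the galactosyltransferase B4galt2 had 0.31 with 0.077. Pmm1, Edem1 and Fut8 were thus the 3 list genes called at an unadjusted p under 0.05, all higher. They were 1 of 15 donor genes, 1 of 16 lectin cycle genes and 1 of 10 capping genes tested. The 5 other oligosaccharyltransferase subunits and the 12 ER chaperone genes gave 0. Of all genes, 2.3% were called higher and 2.71% lower. Of the 5 other oligosaccharyltransferase subunits Krtcap2 had 0.37 with an unadjusted limma p of 0.057, and Tmem258 had 0.14 with 0.357. Of the 12 ER chaperone genes and their regulators Xbp1 had 0.27 with an unadjusted limma p of 0.122, and Hyou1 had 0.55 with 0.142. No list gene was called lower, while the genes per line leaned both ways. Donor medians were 0.03, -0.41, 0.05 and 0.02 over the lines in order, and those of the other oligosaccharyltransferase subunits 0.19, -0.28, 0.39 and 0.30. The lectin cycle had 0.27, -0.06, -0.20 and -0.05, and capping 0.11, 0.26, -0.01 and 0.04, all on the scaled values.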

How the data were processed

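Polyadenylated RNA of 8 cultures was sequenced as paired ends, per the labels' protocols, which name a NovaSeq instrument and a kit that does not mark strand, whereas the design text names a HiSeq and stranded libraries. The deposited values are TPM, made by the authors in 1 table on the mm39 build. The submitters' processing notes list STAR 2.7.11b, DESeq2 2.11.40.8, cutadapt 5.1 and featureCounts 2.1.1 without their roles. The gene lengths behind TPM are not given in the sources used here. TPM keep no depth, so depth is unknown and no counting interval is given.

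Names came from GENCODE vM39, which matched 45505 identifiers and left 3810 unnamed. Genes with at least 1 TPM in at least 4 of 8 libraries were kept (12900). Libraries were scaled by the median ratio to the geometric mean library, and limma 3.58.1 in R 4.3.3, with a mean-variance trend, was fitted to log2(scaled TPM + 1) with genotype and line as terms. Such differences understate the change of low genes. P-values were adjusted by Benjamini-Hochberg at 0.05. The line is a block, since KO and WT share it, and the deviations of same-line libraries from the genotype means correlated with r from 0.42 to 0.79. The fit was tested on simulated data with 12900 genes and gave 8 false calls. Ratios were tested by exact sign flips over lines (16 patterns). All 31 members are named, with fitted values for the 8 of smallest p, and 2 genes of smallest p from each other list. The members, stages and lists were chosen with earlier results of these data known. Alternatives were a pseudocount of 0.1, no filter, a minimum of 5 TPM, no scaling, quantile normalization, structural RNA left out, no trend, robust variance, no line block, each line left out, and a 2-fold threshold. The promoter table is from RefSeq. Tables and figures were made with pandas 2.3.3 and matplotlib 3.10.9 in Python 3.11.15. Of the genes listed beside the members, Tusc3 and Alg10b were not analysed here.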

Additional observations from a re-analysis of the deposited data

Results flagged for a closer look

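In 4 of 62 groups of 4 libraries, 31 members in each genotype, 1 library stood far from the other three by Dixon's test, where chance flags about 1 in 20 groups. Alg13 was at 4.98 TPM in KO 2838c3, against 1.24 to 1.84 TPM in the other KO libraries. Ganab was at 269 TPM in KO 6499c4, against 241 to 244 TPM in the other KO libraries. Scaling, by factors of 0.944 for KO 6499c4 and 0.855 for KO 6694c2, brings Ganab of these libraries level, so KO 6499c4 does not stand apart there. Stt3a was at 136 TPM in WT 6419c5, against 102 to 105 TPM in the other WT libraries. Man1c1, which was too low for the test between genotypes, was at 1.46 TPM in WT 6419c5, against 0.65 to 0.747 TPM in the other WT libraries.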

How the results depend on the processing

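No member passed the adjusted threshold for KO against WT under any of the 14 alternatives. At an unadjusted p under 0.05, Man1a2 was the 1 member called with no filter, with no scaling and with structural RNA left out. Leaving out lines 1 at a time gave 0 to 7 members, the 7 without 2838c3. Over all genes, the split of unadjusted calls, 297 higher and 349 lower, became 111 and 1026 without scaling and 154 and 591 with structural RNA left out, with 0 adjusted calls in each. Without the line block 66 were higher and 57 lower, and of the members 0 were called for KO against WT and 6 for differences between lines, where 19.7% of all genes were called. Without the pairing by line the 5 ratios gave exact permutation p-values from 0.0857 to 0.6, none under 0.05. Members that differed between lines, 4 in all, came to 2 with no filter (Alg9 and Mgat4b), 0 without both 6694c2 and 6419c5, and 0 to 10 with 1 line left out. With both those lines out, Mgat3 reversed to 0.18 and Alg12 to -0.0081, and the cause was not tested. At 2-fold on scaled TPM + 1, 1 member was higher and 0 lower in KO 6694c2, 0 higher and 1 lower in KO 2838c3, and 0 lower in KO 6499c4 and in KO 6419c5. With nothing added Alg6 in KO 2838c3 (49.3% of WT) would pass too. Without scaling the fitted differences came to -0.48 for Man1a2 and Mgat3, -0.43 for Alg6 and Mgat4a, -0.37 for Man2a1, 0.09 for Alg12, 0.08 for Mgat4b and 0.02 for Alg9. Of the other values under alternatives, 268 kept their direction and their side of the threshold or moved by less than their spread. Precision is limited by 1 library per genotype in each line and by a depth that TPM do not carry. Low members (Alg6, Alg13, Man1c1 and Mgat4a) are the least certain, and so are the 11 members whose exons overlap a gene on the other strand.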
